A study of Mus musculus with 2 samples.

Results

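Ion channel genes were described in polyadenylated RNA of mouse ES (embryonic stem) cells. Both lines had the C57BL/6J background, and 1 library each came from the wild type (WT) and from the Fbxl10 T/T genotype. Fbxl10 is an older symbol of Kdm2b, which encodes a CpG-binding subunit of a Polycomb complex. Both cultures were grown with serum and leukemia inhibitory factor on inactivated mouse embryonic fibroblasts, and these feeder cells were depleted by plating before use. What the T allele changes in the gene, and how many lines or cultures stand behind each library, is not stated in the labels. The genes were chosen by symbol alone: Kcn (potassium), Cacna, Cacnb and Cacng (calcium), Scn (sodium), Clcn (chloride), Trpc, Trpm and Trpv (transient receptor potential, TRP) and P2rx (ATP-gated) names, without P2rx4 and P2rx7. This gave 77 genes of the 13620 listed in the deposited table. Of the 169 protein-coding symbols of GENCODE M21 that meet the rule, the other 92 were not among the listed symbols. No count below covers them. With 1 library per genotype no difference between the genotypes could be tested, and "higher" and "lower" describe these 2 libraries.

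Ion channels are membrane proteins whose pores pass ions down their gradients. Voltage-gated potassium, sodium and calcium channels are best known from nerve and muscle, where a pore-forming alpha subunit opens with a change in membrane potential and accessory subunits set its gating and its delivery to the surface. Two-pore-domain potassium channels carry the resting leak of many cell types. Most CLC proteins work inside the cell, as chloride-proton exchangers of endosomes and lysosomes, and TRP channels respond to ligands, temperature and lipids. In ES cells, genes used mainly by differentiated cells are often held at low levels under Polycomb control.

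Levels are given in CPM, the authors' read counts per 1000000 after normalisation of the library size. Log2 ratios are of T/T to WT after 0.5 CPM was added to each level, which understates the change of low genes, and a gene counts as at least 2-fold higher or lower by this ratio. Folds printed for single genes are plain ratios of CPM, so that a low gene such as Trpc1 can have a plain fold above 2 and still count as in between. Intervals after a fold are exact binomial (Clopper-Pearson) 95% intervals from the reads. They cover counting error only, since 1 library per genotype shows no spread between cultures. Copies made by PCR are not independent molecules, so even the counting error may be larger than shown. The listed genes held 21198574 reads in WT and 27109446 in Fbxl10 T/T. A count of 0 was set against 3 reads, about the 95% upper limit of the expected count behind it. These correspond to 0.126 and 0.122 CPM. Kdm2b was at 102.5 CPM in WT and 10.6 CPM in T/T. Of the markers fixed for this comparison, 6 of 8 pluripotency genes were at least 2-fold lower in T/T (summed level 5424 and 1014 CPM) and 11 of 11 endoderm genes at least 2-fold higher (5842 and 55340 CPM). Of 11 fibroblast genes 9 were listed, and none of these passed 2-fold (454.0 and 378.0 CPM). Their median log2 ratio was -0.86, from -0.99 (Prrx1) to 0.44 (Postn), so several lay just short of 2-fold lower. Most of the sum came from Col1a1 (101.6 and 117.3 CPM) and Col1a2 (167.5 and 145.2 CPM). Of the neuron genes, 6 of 10 were listed, and of the 5 at 1 CPM or more 4 were lower (284.9 and 109.5 CPM). Of 6 listed heart and muscle genes 1 was higher and 1 lower (18.8 and 12.5 CPM). No listed marker was at 0 reads, and the part of these cell types in the channel values was not tested. In bulk RNA, fewer cells of a type and less RNA per cell cannot be told apart.

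Of the potassium and calcium channel genes at 1 CPM or more, 24 of 36 and 10 of 14 were at least 2-fold lower in T/T, all 6 listed CLC genes were above their WT level, and 7 genes of several families were more than 5-fold higher. Among 74 channel genes with 1 CPM or more in either library, 42 (56.8%) were at least 2-fold lower, 10 (13.5%) at least 2-fold higher and 22 in between. Over all 13512 genes that met the same minimum, 20.6% were lower, 14.8% higher and 64.7% in between. After rescaling to a common upper quartile the split over all genes was 3254 lower and 1443 higher, in place of 2781 and 1994, and that of the channel genes 45 and 8. The median log2 ratio was -1.39 for the channel genes and 0.02 for all genes. Of the 74 genes, 36 reached 1 CPM in WT alone, 3 in T/T alone and 35 in both. A gene that met the minimum in 1 library alone was bound to differ, so these counts describe the genes that passed and are no evidence about channel genes as a class. Of the 3 genes below the minimum, Cacna1s had 22 and 2 reads in WT and T/T, and Kcnj10 had 22 and 5.

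The split depended on the level of the genes. Of the 45 channel genes at 1 to 5 CPM in their higher library, 32 (71.1%) were lower, 1 (2.22%) was higher and 12 lay in between, beside 41.3%, 6.57% and 52.1% of all 2526 genes at these levels. For the 29 channel genes that reached 5 CPM in either library, 10 (34.5%) were lower, 9 (31.0%) higher and 10 in between. The corresponding shares of all 10986 genes were 15.8%, 16.6% and 67.5%. The median of these 29 genes was 0.34, above 0. Where both libraries had 1 CPM or more, 9 of 35 channel genes were lower, 7 higher and 19 in between, beside 13.1%, 15.7% and 71.1% of all such genes, with a median of -0.21. With a mean of 5 CPM or more, 7 of 25 were lower, 8 higher and 10 in between, beside 13.3%, 16.7% and 70.0%. These last 2 minimums were chosen after seeing the data.

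**Figure D1:**
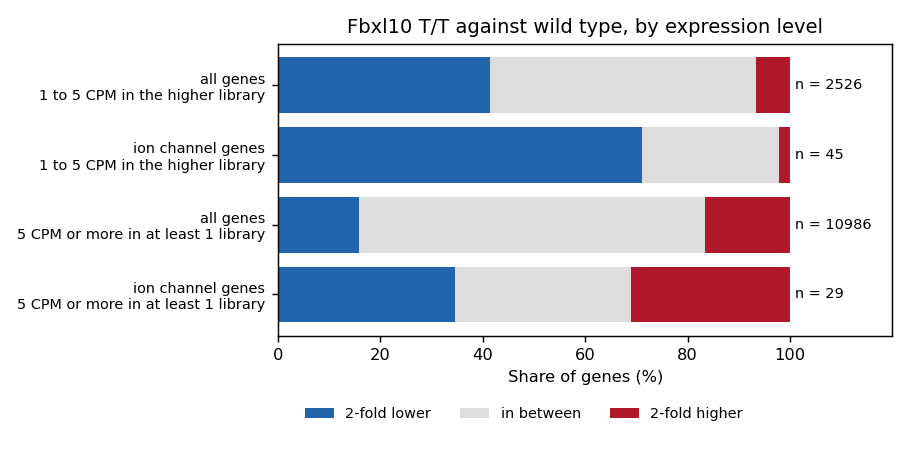
Share of genes (horizontal axis, %) that were at least 2-fold lower, in between or at least 2-fold higher in Fbxl10 T/T, for all genes and for ion channel genes in 2 ranges of expression; n is the number of genes. Among genes of 1 to 5 CPM 71.1% of channel genes and 41.3% of all genes were lower, and at 5 CPM or more the channel genes were divided between lower (34.5%) and higher (31.0%).

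The summed level of the channel genes was 930.4 CPM in WT and 1156 CPM in T/T. These sums include 156.4 and 291.0 CPM of Trpc4ap, which encodes no channel and whose product is a ubiquitin ligase adaptor named for its binding to a TRPC protein. Without it the sums were 774.1 and 864.6 CPM, a ratio of 1.12. By family the ratio of summed levels was 0.68 for potassium, 0.49 for calcium, 0.50 for sodium, 2.35 for CLC, 1.65 for TRP and 0.17 for P2X genes. The TRP ratio includes Trpc4ap, which held most of the TRP sums of 242.5 CPM in WT and 399.9 CPM in T/T. Per kilobase of exon (GENCODE M21 gene models), Cacng7 had the highest level in WT, at 48.3 CPM per kilobase, followed by Trpc4ap at 17.9, Kcnk5 at 16.0 and Kcnk1 at 12.7. In T/T the order was Trpc4ap at 33.3, Cacnb3 at 20.1, Clcn5 at 19.2, Clcn7 at 14.7 and Kcnk13 at 14.5 CPM per kilobase. Cacng7 was at 4.08 CPM per kilobase in T/T, and Cacnb3 at 9.79 in WT.

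**Figure D2:**
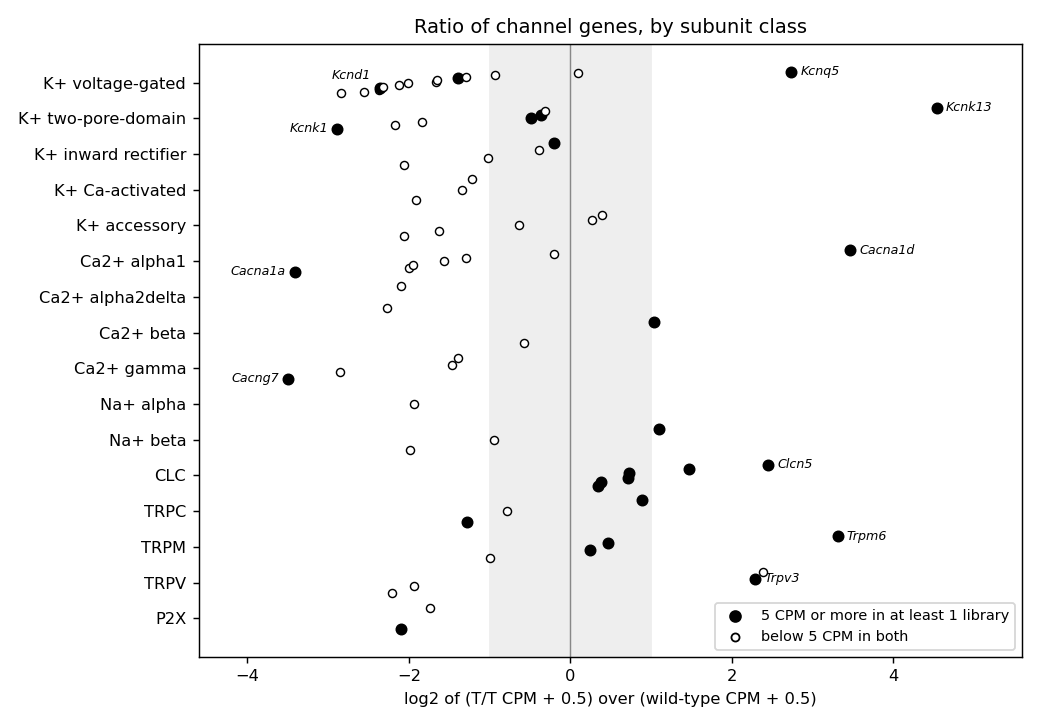
Log2 ratio of T/T over WT with a pseudocount of 0.5 CPM (horizontal axis) for 71 channel genes, in rows by subunit class; filled points reached 5 CPM in at least 1 library, open points did not, and the grey band spans less than 2-fold. Voltage-gated potassium and calcium gamma subunit genes lie mostly to the left and all 6 CLC genes to the right of 0.

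Promoters of 5 genes are shown because they belong to the genes with the largest differences and to the neighbouring genes described further on. They are the 250 bases before the RefSeq start site in GRCm38.p6, 5′ to 3′ on the gene's strand, with each CG dinucleotide, the site that the KDM2B CXXC domain binds when unmethylated, in capitals. Coordinates of the expression table are those of mm9 and were not converted. The sequence of Kcnk13 is from chr12:99964249-99964498 (plus strand), that of Cacna1d from chr14:30353487-30353736 (minus strand, the window with the higher CpG content of its 2), that of Cacng7 from chr7:3332575-3332824 (plus strand), that of Trpv1 from chr11:73233899-73234148 (plus strand) and that of Trpv3 from chr11:73267270-73267519 (plus strand).
Kcnk13: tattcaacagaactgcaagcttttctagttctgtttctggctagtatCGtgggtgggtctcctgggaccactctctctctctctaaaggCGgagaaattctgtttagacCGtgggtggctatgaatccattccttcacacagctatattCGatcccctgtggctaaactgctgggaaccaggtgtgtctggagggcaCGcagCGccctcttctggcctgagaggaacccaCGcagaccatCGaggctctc
Cacna1d: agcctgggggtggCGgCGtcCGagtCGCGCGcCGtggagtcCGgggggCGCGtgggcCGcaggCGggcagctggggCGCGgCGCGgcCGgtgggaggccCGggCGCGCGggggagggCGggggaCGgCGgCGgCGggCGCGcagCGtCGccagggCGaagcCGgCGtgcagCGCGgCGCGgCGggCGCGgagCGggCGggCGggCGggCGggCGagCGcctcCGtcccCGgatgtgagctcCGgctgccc
Cacng7: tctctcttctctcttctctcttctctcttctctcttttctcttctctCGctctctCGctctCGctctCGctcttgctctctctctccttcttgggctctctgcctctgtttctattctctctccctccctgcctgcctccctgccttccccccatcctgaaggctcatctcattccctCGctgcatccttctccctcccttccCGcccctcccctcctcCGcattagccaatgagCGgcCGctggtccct
Trpv1: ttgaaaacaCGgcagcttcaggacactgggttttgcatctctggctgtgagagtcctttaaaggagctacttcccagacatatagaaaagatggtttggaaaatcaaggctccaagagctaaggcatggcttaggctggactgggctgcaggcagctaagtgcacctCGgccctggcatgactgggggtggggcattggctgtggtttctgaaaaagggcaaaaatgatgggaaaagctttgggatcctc
Trpv3: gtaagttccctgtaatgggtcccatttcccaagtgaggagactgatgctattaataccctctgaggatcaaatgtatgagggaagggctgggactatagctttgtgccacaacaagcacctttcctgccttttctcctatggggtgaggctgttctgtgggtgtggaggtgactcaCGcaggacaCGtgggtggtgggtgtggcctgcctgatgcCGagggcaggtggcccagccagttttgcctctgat

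The motif searched was CG, which reads the same on both strands. It occurred 8 times before Kcnk13, 50 times before Cacna1d, 9 times before Cacng7, 2 times before Trpv1 and 3 times before Trpv3. Of 32851 RefSeq windows of this length, 92.1% held at least 1 CG, with a median of 6. Of the 4 genes shown that were higher in T/T, Cacna1d had the most CG and Trpv1 the fewest. A promoter window was matched for 56 of the 77 channel genes (72.7%), under the 80% needed, so a comparison of CpG content over the channel genes was void and is not given.

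Potassium channels were the largest family, with 37 genes listed. Of the 36 at 1 CPM or more, 24 were lower, 2 higher and 10 in between, with a median log2 ratio of -1.66. Of these 36 genes, 20 reached 1 CPM in WT alone, so their direction was set by the minimum. Of the 18 voltage-gated pore genes 15 were lower, 1 higher and 2 in between, with a median of -2.06. Here 12 reached 1 CPM in WT alone and 6 in both libraries. Over all genes, 41.3% of those at 1 to 5 CPM in their higher library were lower, and 15.8% of those at 5 CPM or more. Kcnd1, a Kv4 gene of transient A-type current, was at 5.57 CPM in WT and 0.689 CPM in T/T, 8.09-fold lower. Kcnh2, the gene of the cardiac repolarising channel hERG, was at 11.2 and 3.97 CPM, 2.83-fold lower with an interval of 2.23 to 3.60. Both were thus lower, from 133 and 268 reads in WT to 17 and 98 in T/T.

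Electrically silent Kv subunits form no channel alone and modify the channels of other Kv subunits. All 6 that were listed (Kcnf1, Kcng1, Kcng3, Kcng4, Kcns1 and Kcns3, grouped after their values were seen) were at least 2-fold lower, with WT levels of 1.09 to 4.82 CPM. Of these, 5 reached 1 CPM in WT alone, so their direction was set by the minimum. Of all genes at 1 to 5 CPM in their higher library, 41.3% were lower. The group is therefore no evidence about silent subunits as a class. Kcng4 had 26 reads in WT and 0 in T/T, which is 8.96-fold lower when set against 3 reads. Its interval starts at 6.78-fold lower. Kcns1 was at 3.64 CPM in WT and had 2 reads in T/T, a ratio of 45.0 with an interval of 12.1 to 377.2. Kcnc4, Kcnh1 and Kcnh3 were lower too, and none of these reached 5 CPM. Kcna7 (log2 ratio -0.94) and Kcnh6 (0.10) lay in between. Against this direction stood Kcnq5, which encodes a subunit of the slow M-type current. It was at 1.84 CPM in WT and 15.1 CPM in T/T, 8.20-fold higher (5.99 to 11.5), from 44 and 373 reads. Its interval contains that of a short gene model, Gm7658, at 27.5 and 40.4 CPM.

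The two-pore-domain genes held both the highest ratio of all channel genes and 3 that were lower. Kcnk13, which encodes the halothane-inhibited leak channel THIK-1, was at 1.47 CPM in WT and 45.1 CPM in T/T, from 35 and 1114 reads (30.8-fold higher, 22.0 to 44.4). The listed gene spans 101202766 to 101300884 on chromosome 12 in mm9, and the nearest listed genes on either side differed by less than 2-fold: Tdp1 at 64.8 and 52.2 CPM, and Psmc1 at 266.2 and 312.4 CPM. Kcnk1, which encodes the weakly rectifying channel TWIK-1, went the other way, at 28.3 CPM in WT and 3.40 CPM in T/T (8.32-fold lower, 6.62 to 10.6). Kcnk12, the closest paralogue of Kcnk13, was at 3.01 and 0.284 CPM, and Kcnk4, a mechanosensitive leak channel gene, at 2.30 and 0.284 CPM. The most abundant of the class in WT, Kcnk5, which encodes the alkali-activated channel TASK-2, was at 54.3 and 38.6 CPM, and Kcnk6 had 342 and 272 reads, 1.30-fold lower. These and Kcnk10 (1.88 and 1.42 CPM) differed by less than 2-fold. The summed level of the class was therefore nearly equal, at 105.6 CPM in WT and 100.1 CPM in T/T.

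Inward rectifiers, calcium-activated channels and accessory potassium subunits were low in both libraries. Kcnj4 was the only one at 5 CPM or more, at 8.96 CPM in WT and 7.70 CPM in T/T. Kcnj12 was lower, with 46 reads in WT and 2 in T/T, and Kcnj14 was at 1.63 and 1.13 CPM. All 3 small- and intermediate-conductance calcium-activated genes were lower: Kcnn1 by 3.58-fold, Kcnn2 by 5.55-fold and Kcnn4 by 4.44-fold, from WT levels of 1.88, 4.27 and 1.80 CPM. All 3 reached 1 CPM in WT alone. Of the 5 accessory genes, Kcnab2 and Kcnip2 were lower, and Kcnab3 (3.43 and 4.25 CPM), Kcne4 (4.44 and 2.67 CPM) and Kcnip3 (2.22 and 3.08 CPM) lay in between.

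**Figure D3:**
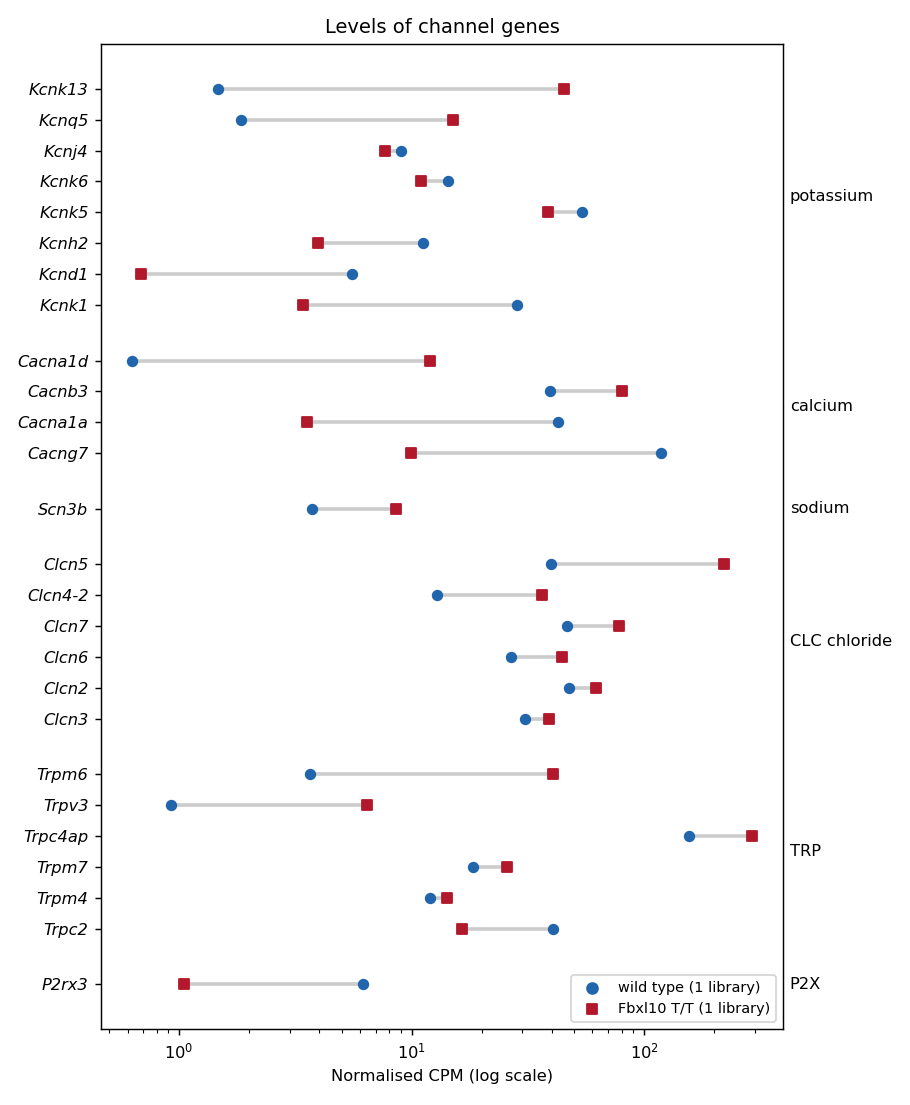
Normalised CPM on a log scale (horizontal axis) of 26 channel genes that reached 5 CPM in either library, by family; circles are the WT library, squares the Fbxl10 T/T library, and the grey line joins them. Kcnk13 shows the widest gap to the higher side (1.47 to 45.1 CPM) and Cacna1a (42.7 to 3.56 CPM) and Cacng7 (118.0 to 9.96 CPM) the widest of those drawn to the lower side.

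Voltage-gated calcium channels are built from an alpha1 pore with alpha2delta and beta subunits, while the gamma genes encode relatives that mostly serve as partners of AMPA-type glutamate receptors. Of the 14 calcium channel genes at 1 CPM or more, 10 were lower, 2 higher and 2 in between. Of these 14, 8 reached 1 CPM in WT alone, 1 in T/T alone and 5 in both. Among the pores, Cacna1a, the P/Q-type gene of presynaptic release, was at 42.7 CPM in WT and 3.56 CPM in T/T (12.0-fold lower, 9.62 to 15.1). Cacna1d, which encodes the L-type pore Cav1.3, was at 0.628 CPM in WT and 11.9 CPM in T/T, from 15 and 295 reads (19.0-fold higher, 11.3 to 34.4). The most abundant pore gene was thus Cacna1a in WT and Cacna1d in T/T, also per kilobase of exon (3.74 CPM per kilobase for Cacna1a in WT and 0.947 for Cacna1d in T/T). The listed interval of Cacna1d overlaps those of Dcp1a, at 90.9 and 72.2 CPM, and Chdh, at 1.67 and 0 CPM, neither of which was higher in T/T. Cacna1b, Cacna1c and Cacna1h were 9.30-, 5.38- and 7.05-fold lower from 2.18 to 3.14 CPM in WT, and Cacna1g was at 2.14 and 1.78 CPM. Cacna1c overlaps Dcp1b, which was also lower, at 3.18 and 0.648 CPM, and without a known strand setting their reads cannot be told apart where they overlap.

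Both alpha2delta genes were lower, Cacna2d1 at 4.77 and 0.729 CPM and Cacna2d2 at 4.27 and 0.486 CPM. The beta genes, whose products bring the pore to the membrane, were not lower by 2-fold. Cacnb3 was at 39.3 CPM in WT and 80.8 CPM in T/T, 2.06-fold higher (1.90 to 2.22), and its log2 ratio of 1.03 became 0.90 when the libraries were rescaled to equal medians, which takes it below 2-fold. Cacnb1 was at 3.98 and 2.51 CPM.

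All 4 gamma genes listed were lower. Cacng7 carried most of their RNA, at 118.0 CPM in WT and 9.96 CPM in T/T, from 2817 and 246 reads (11.8-fold lower, 10.4 to 13.5). Cacng6 had 102 reads in WT and 4 in T/T, a 26.4-fold difference with an interval of 9.99 to 98.6. Cacng8 had 27 and 3 reads and Cacng4 29 and 3. The summed level of the 4 genes was 124.6 and 10.4 CPM, a ratio of 0.083. Cacng7, Cacng8 and Cacng6 are neighbours on chromosome 7 in mm9, from 3333055 to 3435658. The listed genes on both sides, looked up after the values were seen, were lower as well: Prkcc, a protein kinase C gene 2050 bases before Cacng7, was at 8.29 and 1.17 CPM, and Tarm1, the next listed gene, 54299 bases beyond Cacng6, at 1.84 and 0.162 CPM. The next gene beyond Prkcc, Myadm, was at 329.0 and 626.6 CPM. The 5 consecutive listed genes from Prkcc to Tarm1 were thus lower, and on 1 side the run ended at Myadm. Genes more than 100 kilobases beyond Cacng6 were not looked up, so its end beyond Tarm1 is not known.

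Sodium channel genes were sparse, with 6 listed. Of the 5 at 1 CPM or more 3 were lower, 1 higher and 1 in between, and 3 of the 5 reached 1 CPM in WT alone. Scn3b, a beta subunit gene, was the higher one, at 3.73 and 8.55 CPM (2.29-fold, 1.78 to 2.97). Its log2 ratio of 1.10 was 0.97 after rescaling to equal medians and 0.87 after rescaling to equal upper quartiles, both below 2-fold. The neighbouring genes Scn2b and Scn4b, 8685 bases apart on chromosome 9, had 26 and 39 reads in WT and 8 and 1 in T/T. Of the pore genes, Scn8a, widely used in neurons, had 52 and 5 reads.

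CLC genes were the only family without a gene that was 2-fold lower. All 6 listed were above their WT level, 2 of them by at least 2-fold, with a median log2 ratio of 0.72, and each was at 5 CPM or more in both libraries. Of all 10986 genes at 5 CPM or more in either library, 16.6% were at least 2-fold higher. Their median log2 ratio was 0.12 and their upper quartile 0.71, so in the authors' normalisation most genes at this level were above their WT level too. That median was smaller than the shifts of 0.13 and 0.24 made by rescaling to equal medians or upper quartiles. Clcn5, which encodes the endosomal exchanger needed for protein uptake in the kidney, was at 39.7 CPM in WT and 220.1 CPM in T/T, from 949 and 5433 reads (5.54-fold higher, 5.17 to 5.94). Clcn4-2, whose endosomal product pairs with that of Clcn3, was at 12.9 and 36.5 CPM (2.84-fold higher, 2.49 to 3.24). The exchanger genes of late endosomes and lysosomes were higher by less: Clcn7 by 1.66-fold (46.7 and 77.7 CPM) and Clcn6 by 1.65-fold (26.9 and 44.3 CPM). Clcn3 (30.7 and 39.0 CPM) and Clcn2, the plasma membrane channel of the family (47.5 and 62.0 CPM, its end overlapping 2900046G09Rik at 2.68 and 5.63 CPM), were 1.27- and 1.31-fold higher. All 6 kept this direction under both rescalings, with log2 ratios of at least 0.10. The endoderm markers above, which include the endocytic adaptor gene Dab2 (175.8 and 1066 CPM), were higher in the same library, and their part in the Clcn5 value was not tested.

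TRP genes were divided, with 3 of 11 higher, 3 lower and 5 in between. Trpm6, which encodes a magnesium-permeable channel with a kinase domain, was at 3.64 CPM in WT and 40.6 CPM in T/T, from 87 and 1003 reads (11.2-fold higher, 8.95 to 14.0). Its widely expressed partner Trpm7 was at 18.4 and 25.6 CPM, so that Trpm6 exceeded Trpm7 in T/T and not in WT, also per kilobase of exon (5.26 against 2.27 in T/T, 0.472 against 1.63 in WT). Trpm4, a calcium-activated cation channel gene, was at 12.0 and 14.3 CPM, and the taste channel gene Trpm5 at 2.43 and 0.972 CPM. The Trpm4 interval holds a processed pseudogene, Rpl14-ps1, at 966.8 and 1030 CPM. Trpc2, a pheromone-sensing channel gene, was at 40.7 and 16.5 CPM (2.46-fold lower, 2.19 to 2.77) and overlaps Rnf121, at 32.5 and 38.5 CPM. Trpc1 had 27 and 11 reads. Trpc4ap was at 156.4 and 291.0 CPM, 1.86-fold higher.

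The TRPV genes, for heat-, stretch- and osmosensitive channels, formed 2 pairs of opposite direction. Trpv2 was at 4.98 and 0.689 CPM (7.24-fold lower, 4.33 to 12.8) and Trpv4 had 41 reads in WT and 2 in T/T. Trpv3, known from keratinocytes, was at 0.921 and 6.44 CPM (6.99-fold higher, 4.46 to 11.5). Trpv1, the capsaicin receptor gene, had 5 reads in WT and 79 in T/T, at 0.209 and 3.20 CPM (15.3-fold higher, 6.28 to 48.4). Trpv1 and Trpv3 lie 6378 bases apart on chromosome 11, from 73047794 to 73110702 in mm9. The listed genes around them, looked up after the values were seen, were higher too: Tax1bp3 at 6.03 and 42.7 CPM, the lysosomal cystine transporter gene Ctns at 25.4 and 123.4 CPM, Shpk at 3.06 and 16.7 CPM, and Aspa with 24 and 102 reads. These 6 consecutive genes had log2 ratios of 1.62 to 2.73. Tmem93, whose listed interval ends 181 bases before that of Tax1bp3 begins, was at 85.5 and 145.7 CPM, a log2 ratio of 0.77. The next gene outward was P2rx5, at 2.39 and 0.365 CPM, so that a channel gene on the lower side and a pair on the higher side lay within the same stretch, 61607 bases apart. Whether reads of a neighbour were counted for Trpv1 or Trpv3 was not tested.

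**Figure D4:**
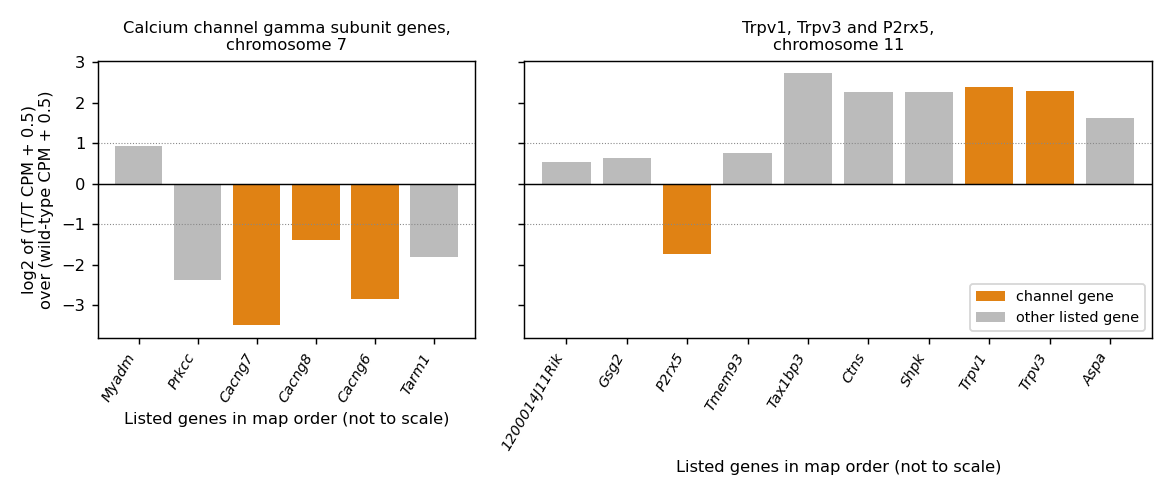
Log2 ratio of T/T over WT with a pseudocount of 0.5 CPM (vertical axis) of the listed genes in map order at 2 loci with several channel genes (orange), with dotted lines at 2-fold. The genes from Prkcc to Tarm1 on chromosome 7 all lie below -1, and those from Tax1bp3 to Aspa on chromosome 11 all lie above 1, with P2rx5 at -1.74.

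P2X receptors are ATP-gated cation channels, and both genes listed here were lower. P2rx3, the gene of the receptor in pain-sensing neurons, was at 6.16 and 1.05 CPM (5.84-fold lower, 3.83 to 9.24), from 147 and 26 reads. Its listed interval overlaps the end of that of Ssrp1, an abundant gene at 364.5 and 314.5 CPM, so its level is uncertain. P2rx5 was 6.55-fold lower, with 57 and 9 reads.

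Genes of other ion transport proteins, taken from a list of channels, pumps and exchangers outside these names, were not mostly lower. Of 83 at 1 CPM or more, 25 (30.1%) were lower, 20 (24.1%) higher and 38 in between, with a median of -0.06. Over all genes that met this minimum 20.6% were lower and 14.8% higher. Of the 83 genes, 72 reached 1 CPM in both libraries and 10 in WT alone, beside 35 and 36 of the 74 channel genes. Where both libraries had 1 CPM or more, 25.7% of the channel genes were lower. The 2 sets thus differed in level, and their shares over all levels are not like for like. Other anion channels had 10 of 27 higher and 9 lower, calcium release and entry genes 5 of 15 higher and 4 lower, other cation channels 4 of 20 higher and 5 lower, and cation pumps and exchangers 1 of 21 higher and 7 lower. Of the genes at 5 CPM or more, the smallest log2 ratios were those of Itpr3, an IP3 receptor gene of calcium release (102.8 and 8.06 CPM), Atp1b2, a sodium pump subunit gene (32.8 and 3.16 CPM), and Ryr1, the ryanodine receptor gene of skeletal muscle (12.6 and 1.09 CPM). The largest were those of Clic5 (3.06 and 24.2 CPM), Lrrc8e, a subunit gene of the volume-regulated anion channel (1.76 and 11.6 CPM), and Clic3 (1.67 and 10.6 CPM). The 3 largest were thus all on the anion channel list, as the CLC genes were the family without a lower member.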

How the data were processed

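Poly(A) RNA of 2 libraries, WT and Fbxl10 T/T ES cells, was compared. Per the submitters' processing notes, TopHat 1.4.1, HTSeq 0.5.3p9, edgeR and build mm9 were used. What each step did, and whether strand was used, is not given in the sources used here. Per the deposited table, the authors gave a normalised signal per gene and library and their own log2 ratio and mean log2 CPM, which were used only as a check on the ratios. The signal is not plain CPM, since the T/T column sums to over 1000000. All values (100%) were whole multiples of 1 step per library within 0.01 reads, so reads were recovered (0.0419 CPM per read in WT, 0.0405 in T/T). The table's 24706 rows held 13620 genes, and repeated rows were used once. No gene in the table had both fewer than 22 WT reads and fewer than 28 T/T reads.

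Members were taken by symbol. Log2 ratios used a pseudocount of 0.5 CPM, counts a minimum of 1 CPM in at least 1 library and a 2-fold threshold. Named are the channel genes at 5 CPM or more, the largest and smallest ratio of each family, and 3 at either end of the other ion transport list at 5 CPM or more. Further genes are named to account for their families, and 6 channel genes are counted but not reported singly here. The members and lists were chosen with earlier results of these data known. As further comparisons of the libraries, not the genotypes, a two-sided exact binomial test (Benjamini-Hochberg, 0.05) called 5792 genes higher and 5580 lower. With an assumed coefficient of variation of 0.2, edgeR 4.0.16 run on these reads called 2060 higher and 2861 lower, and 10 and 45 of the channel genes. The steps were tested on simulated counts. Tried as alternatives were a pseudocount of 0.1 or 1 CPM, a minimum of none or 5 CPM, rescaling to equal medians or upper quartiles, thresholds of 1.5- and 4-fold, and removal of Trpc4ap. Python 3.11.15, scipy 1.17.1 and R 4.3.3 were used.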

Additional observations from a re-analysis of the deposited data

How the results depend on the processing

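No paired analysis was possible because each genotype had 1 library, and no library could be left out. Minimums on the mean of both libraries or on both libraries were chosen after seeing the data. A minimum of 5 CPM leaves fewer genes. With it, 10 channel genes were lower in place of 42 and their median turned to 0.34, and 7 were lower with a mean of 5 CPM, where the median was 0.38. With 1 CPM in both libraries 9 were lower and the median was -0.21. At a 4-fold threshold 23 channel genes were lower. Over all genes, higher genes numbered 3582 at 1.5-fold and 519 at 4-fold, and lower genes 1229 at 4-fold, 1737 with 5 CPM, 1384 with a mean of 5 CPM and 1550 with 1 CPM in both. Rescaling shifted the T/T values down by 0.13 (median) or 0.24 (upper quartile) on the log2 scale and turned the median of all genes to -0.11 or -0.21. The lower genes at 5 CPM or more and at 4-fold were 5 and 14 for potassium, 2 and 6 for calcium, 1 and 1 for sodium, 1 and 1 for TRP and 1 and 1 for P2X. TRP had 5 lower with a pseudocount of 0.1 CPM or at 1.5-fold. Higher calcium genes numbered 1 and higher sodium genes 0 after either rescaling and at 4-fold. Higher CLC genes numbered 4 at 1.5-fold and 1 at 4-fold. The calcium median was -2.56 with a pseudocount of 0.1 CPM, and the sodium median -0.47 with 5 CPM. Requiring the binomial test as well or leaving out Trpc4ap kept the counts of 10 higher and 42 lower channel genes. Depth limits the lowest genes: 13 channel genes had 3 reads or fewer in T/T and none in WT.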
